A study of Mus musculus with 5 samples.

Results

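Ribosome footprints on 10 genes for cytosolic and mitochondrial heat shock chaperones were compared between standard RIBO-seq and AHARIBO RIBO-seq of mouse embryonic stem cells (mESCs). The cytosolic genes were Hspa8, Hsp90ab1, Hsp90aa1, Hspa4, Hsph1 and Dnaja1, and the mitochondrial genes were Hspa9, Hspd1, Hspe1 and Trap1. They were chosen by gene symbol, not by any measured value, and their 31 protein_coding transcripts (25 cytosolic, 6 mitochondrial) were taken from a table of 135276 transcripts. The transcript with the highest CPM (reads of the transcript scaled to the library total by TMM) among the protein_coding transcripts of a gene stands for that gene. The other 29 transcripts of these genes, which have other transcript types, were not counted.

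RIBO-seq sequences the RNA fragments that ribosomes protect from nuclease. Both groups came from mESCs that the labels call untreated and that, per the study's methods, received the elongation inhibitor cycloheximide before harvest, and RNase I (1.3 U, 45 min) trimmed both lysates before fragments of 25 to 35 nt were cut from a gel. In standard RIBO-seq (3 libraries) ribosomes were pelleted through 30% sucrose, whereas in AHARIBO RIBO-seq (2 libraries) they were captured on beads through growing peptides that carry L-azidohomoalanine (AHA), a methionine analog. The study's methods describe AHA labeling after methionine depletion for its other mESC experiments and do not restate it for these libraries. Its workflow figure, however, puts methionine depletion, AHA and the anisomycin-based reagent sBlock ahead of AHARIBO RIBO-seq. The study's text speaks of independent replicates and of standard RIBO-seq on the input, but neither it nor the labels say that replicates are separate cultures, so p-values measure the spread between libraries, which may be technical. Library totals without duplicate reads were 6403651 to 9110668 in standard RIBO-seq and 9972892 to 11150527 in AHARIBO RIBO-seq, and 3 counts corresponded to 0.262 to 0.476 CPM. All 10 listed markers of pluripotent stem cells were detected, at 49.2 to 247 CPM, while the fibroblast markers reached at most 2.93 CPM (Thy1) and the endoderm markers at most 2.41 CPM (Sox7), with Col3a1, Postn and Afp at no more than 1 read in any library. Among the neural markers, Tubb3 (34.9 CPM) and Sox1 (11.6 CPM) were the highest.

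Heat shock chaperones bind other proteins that are not fully folded, and the cytosolic HSP70 system can do so while a chain is still growing. In the cytosol, HSP70 (Hspa8, the constitutive form) is loaded onto its clients by J-domain proteins such as Dnaja1, and nucleotide exchange factors of the HSP110 class (Hspa4 and Hsph1) help it release them. HSP90 (Hsp90ab1, the constitutive form, and Hsp90aa1, the stress-inducible form) acts later, on kinases, receptors and other clients. Mitochondria have their own set: Hspa9 (mortalin) helps pull precursors through the inner membrane, Hspd1 (HSP60) and its lid Hspe1 (HSP10) form the folding chamber of the matrix, and Trap1 is the mitochondrial HSP90. The 4 mitochondrial genes are encoded in the nucleus and translated by cytosolic ribosomes, so that their nascent chains can also carry AHA.

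Because AHARIBO captures a ribosome through a labeled methionine in its peptide, the starts of the coding sequences are shown for 9 members, with methionine codons (ATG in frame) in capitals. Each is the first 60 coding bases of the main transcript, 5′ to 3′ on the coding strand, from Gencode M21 (GRCm38). Each lies within 1 exon, except that of Hspe1, which runs over a splice junction. Per the study's text, the first methionine is removed during translation in most proteins, so it need not stay on the growing chain.
Hspa8, chr9:40801923-40801982, + strand: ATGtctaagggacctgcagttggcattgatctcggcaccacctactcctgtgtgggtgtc
Hsp90ab1, chr17:45571852-45571911, - strand: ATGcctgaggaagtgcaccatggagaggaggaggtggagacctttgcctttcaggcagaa
Hsp90aa1, chr12:110695621-110695680, - strand: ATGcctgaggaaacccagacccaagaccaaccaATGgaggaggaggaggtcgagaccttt
Hspa4, chr11:53300107-53300166, - strand: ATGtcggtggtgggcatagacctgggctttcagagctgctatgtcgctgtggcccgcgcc
Hsph1, chr5:149636017-149636076, - strand: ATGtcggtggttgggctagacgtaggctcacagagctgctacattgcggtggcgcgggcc
Dnaja1, chr4:40723713-40723772, + strand: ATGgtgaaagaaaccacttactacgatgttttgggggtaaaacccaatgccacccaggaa
Hspd1, chr1:55086880-55086939, - strand: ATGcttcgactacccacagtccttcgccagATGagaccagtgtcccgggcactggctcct
Hspe1, chr1:55088410-55089107, + strand: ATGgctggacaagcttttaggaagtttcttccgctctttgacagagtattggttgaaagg
Trap1, chr16:4077721-4077780, - strand: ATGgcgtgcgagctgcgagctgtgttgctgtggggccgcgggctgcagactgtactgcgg

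Hsp90aa1 and Hspd1 held a second methionine codon within these bases, at codons 12 and 11. In Hsp90ab1 the second methionine codon was codon 25, although the coding sequences of Hsp90aa1 and Hsp90ab1 were identical at 76.8% of 2173 aligned nt. The paralogs Hspa4 and Hsph1 were identical at 68.8% of 2474 aligned nt. The second methionine was farthest from the start in Trap1, at codon 143. Over the full coding sequence, the number of methionine codons ranged from 2 in Hspe1 (102 amino acids) to 24 in Hsph1 (858 amino acids). No sequence is shown for Hspa9.

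HSP90 and HSP70 were the most densely covered members per kb of transcript. Footprint density, the CPM of the main transcript divided by its length in kb, was used to set genes against each other. In standard RIBO-seq, Hsp90ab1 had 312 ± 24.3 CPM per kb (SD, n = 3), Hspa8 234 ± 10.4 and Hsp90aa1 158 ± 8.50. The mitochondrial members Hspe1 (81.6 ± 4.26), Hspa9 (71.8 ± 1.75), Hspd1 (47.0 ± 2.90) and Trap1 (41.1 ± 1.05) lay in the middle together with Hspa4 (52.3 ± 0.567). Dnaja1 (14.97 ± 0.256) and Hsph1 (12.1 ± 0.463) were lowest. Among 12372 genes with a tested protein_coding transcript, 0.21% had a denser transcript than Hsp90ab1, and 19.2% were denser than Hsph1. AHARIBO RIBO-seq gave the same order, except that Hspd1 (53.5 ± 2.71, SD, n = 2) came before Hspa4 (51.2 ± 1.77), whose libraries overlapped with those of Hspd1. The gaps depended on the length used and on the removal of duplicate reads. Per kb of coding sequence, Hspe1 was at 204 ± 10.7 in standard RIBO-seq, close to Hsp90aa1 (236 ± 12.7), and Hspa4 at 95.6 ± 1.04. At the bottom, Dnaja1 (42.3 ± 0.725 in standard RIBO-seq) came close to Trap1 (45.0 ± 1.15), and in AHARIBO RIBO-seq its mean was above that of Trap1 (47.5 ± 0.976 against 42.5 ± 2.26). With all protein_coding transcripts of a gene summed, which counts shared reads more than 1 time, Hsph1 (53.3) and Dnaja1 (46.6) came above Trap1 (41.1) in standard RIBO-seq, and Hspa8 (506) drew level with Hsp90ab1 (505). For the main transcripts with duplicates kept, the gap between the ends was wider. Hsp90ab1 was then at 499 ± 12.9 and Hsph1 at 7.75 ± 0.325 CPM per kb of transcript in standard RIBO-seq. These differences between genes were not tested.

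**Figure D1:**
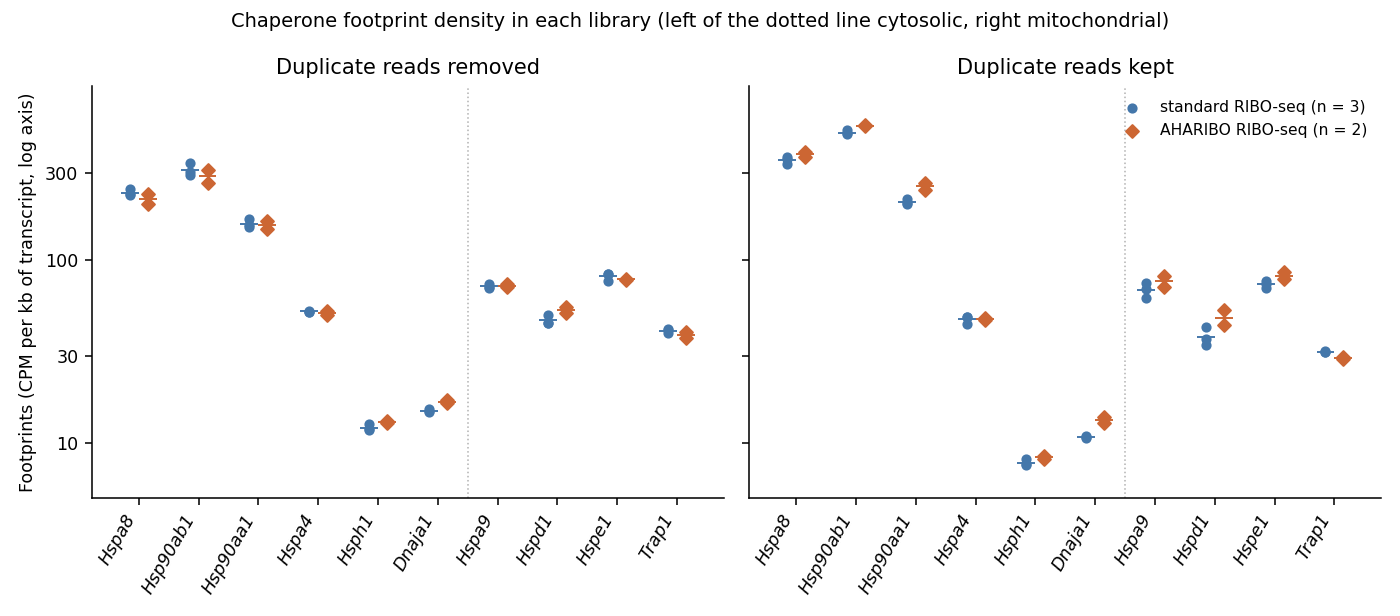
Footprint density of the main transcript of each gene (CPM per kb of transcript, log axis), with duplicate reads removed (left) and kept (right). Points are libraries, 3 of standard RIBO-seq (circles) and 2 of AHARIBO RIBO-seq (diamonds), and short lines are means; with duplicates removed, Hsp90ab1 was highest (312 CPM per kb in standard RIBO-seq) and Hsph1 lowest (12.1) in both methods.

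None of the 10 chaperone genes passed the test between the methods. With duplicate reads removed, as the methods state, edgeR's quasi-likelihood test called 4.51% of 66972 transcripts and 5.12% of the 12372 genes at an adjusted p of 0.05, and 0 of the 31 member transcripts. With library size in place of TMM 1 of the 31 (the second model of Dnaja1) was called higher, and without AHARIBO replicate 2 edgeR called 2 shorter models, of Hspa8 and Hsp90ab1, lower. At an unadjusted p under 0.05 edgeR gave 2 of the 10 genes (Dnaja1 and Hspd1) and 6 of the 31 transcripts, where 19.4% of all genes reached that level. DESeq2, which called 0.46% of all transcripts, also called 0 members. The median log2 fold change, AHARIBO over standard, was -0.02 over the 6 cytosolic and -0.02 over the 4 mitochondrial members, against -0.0032 over all genes. With duplicates kept, these medians were 0.12, 0.15 and -0.018. In bulk lysates, fewer footprints per cell and fewer cells with footprints cannot be told apart.

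The HSP90 pair and Hspa8 were spread over both methods. Hsp90ab1 was at 769, 735 and 854 CPM in standard RIBO-seq and at 669 and 783 CPM in AHARIBO RIBO-seq. Hspa8 was at 548, 544 and 589 CPM against 488 and 552 CPM. Hsp90aa1 was at 511, 497 and 551 CPM against 486 and 540 CPM. In all 3 genes the lowest value was AHARIBO replicate 1, the deepest library, the highest was standard replicate 3, the shallowest, and the groups overlapped. The log2 fold changes were -0.11 ± 0.08 (SE) for Hsp90ab1, -0.11 ± 0.08 for Hspa8 and -0.02 ± 0.08 for Hsp90aa1, with adjusted p = 0.46, 0.47 and 0.93 in edgeR. Without AHARIBO replicate 1 they were -0.0048, -0.02 and 0.05, and without AHARIBO replicate 2 they were -0.23, -0.20 and -0.09.

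None of the 3 cochaperones of HSP70 passed the test. Dnaja1, the J-domain protein, was at 50.5, 49.7 and 51.4 CPM in standard RIBO-seq and at 57.6 and 55.9 CPM in AHARIBO RIBO-seq. The libraries of both methods did not overlap, but the log2 fold change of 0.17 ± 0.08 did not pass the test (edgeR unadjusted p = 0.044, adjusted p = 0.25). Hsph1 was at 48.1, 45.1 and 44.9 CPM against 50.2 and 48.6 CPM, again without overlap (0.10 ± 0.08, adjusted p = 0.56 in edgeR). Hspa4 was at 240, 241 and 245 CPM against 231 and 242 CPM, which overlap (-0.03 ± 0.07, adjusted p = 0.88 in edgeR).

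In the mitochondrial set only Hspd1 had separate groups. Hspd1, the HSP60 subunit, was at 110, 122 and 109 CPM in standard RIBO-seq and at 134 and 125 CPM in AHARIBO RIBO-seq, a log2 fold change of 0.19 ± 0.08 (edgeR unadjusted p = 0.021, adjusted p = 0.17). Its lid Hspe1 was at 64.98, 59.4 and 65.2 CPM against 60.5 and 61.1 CPM (-0.05 ± 0.08, adjusted p = 0.79 in edgeR). Hspa9 was at 214, 225 and 218 CPM against 224 and 217 CPM, the smallest difference of the 10 genes (0.01 ± 0.08, adjusted p = 0.96 in edgeR). Trap1 was at 92.6, 96.4 and 97.2 CPM against 86.7 and 93.5 CPM (-0.08 ± 0.08, adjusted p = 0.62 in edgeR), and its fold change was -0.03 without AHARIBO replicate 1 and -0.13 without AHARIBO replicate 2. Of all 10 genes, 3 (Hsph1, Dnaja1 and Hspd1) had methods that did not overlap, as did 34.3% of all genes.

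Of the 10 members, 6 have further protein_coding models, which overlap the main transcript and can hold the same reads. The second-highest model is compared here by its CPM. In Hspa8, Hsp90aa1 and Hsph1 it reached 95.4%, 96.9% and 94.9% of the CPM of the main transcript, in Dnaja1 85.9%, in Hspd1 39.8% and in Hsp90ab1 27.3%. Hspa4, Hspa9, Hspe1 and Trap1 have 1 protein_coding transcript each. The second model of Hspd1 (ENSMUST00000127861.7) had a log2 fold change of 0.06 ± 0.08, against 0.19 ± 0.08 for the main one, and neither passed the test. The second model of Dnaja1 (ENSMUST00000164233.7) was at 42.5 ± 1.84 CPM in the 3 standard and at 50.1 ± 0.532 CPM in the 2 AHARIBO libraries (mean ± SD), with an adjusted p of 0.091 in edgeR. The lowest adjusted p of the 31 transcripts, 0.073 in edgeR, belonged to a short model of Hspa8 (ENSMUST00000133964.1), at 117 ± 7.18 against 98.9 ± 7.26 CPM.

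Keeping duplicate reads changed the direction of 5 members. A duplicate is a read with the same sequence and position as another, and it can be a PCR copy or an independent footprint. With duplicates kept, the 3 most abundant chaperones were higher in AHARIBO RIBO-seq on average, and Hsp90aa1 passed the test. It was at 709, 678 and 665 CPM in standard RIBO-seq and at 863 and 798 CPM in AHARIBO RIBO-seq, a log2 fold change of 0.28 ± 0.07 (adjusted p = 0.039 in edgeR). Hsp90ab1 was at 1293, 1247 and 1230 CPM against 1392 and 1359 CPM (0.13 ± 0.06, adjusted p = 0.23 in edgeR), and Hspa8 at 861, 874 and 802 CPM against 941 and 874 CPM (0.10 ± 0.07, adjusted p = 0.43 in edgeR). The other members whose sign turned were Hspe1 (0.15 ± 0.08) and Hspa4 (0.0023 ± 0.07).

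With duplicates kept, Dnaja1 and Hspd1 did not pass the test either. Dnaja1 was at 36.5, 35.7 and 36.7 CPM against 46.5 and 43.3 CPM (0.31 ± 0.08, adjusted p = 0.058 in edgeR), and Hspd1 at 89.7, 104 and 83.5 CPM against 129 and 106 CPM (0.35 ± 0.11, adjusted p = 0.094 in edgeR). The value of Hspd1 was 0.19 without AHARIBO replicate 1 and 0.47 without AHARIBO replicate 2. Hsph1 was at 30.9, 29.0 and 28.5 CPM against 32.3 and 30.8 CPM, a log2 fold change of 0.10 in both versions. Trap1 was the one member below 0 in this version, at 72.8, 73.9 and 73.1 CPM against 66.3 and 68.1 CPM (-0.12 ± 0.08, adjusted p = 0.39 in edgeR). With duplicates kept, edgeR called 3.43% of 60283 transcripts and 4 of the 31 member transcripts, all higher in AHARIBO RIBO-seq: both full-length models of Hsp90aa1 and 2 models of Dnaja1. The groups did not overlap in 6 of the 10 members, and in 37.3% of all genes. The call of Hsp90aa1 was lost (adjusted p of 0.058 to 0.45 in edgeR) without standard replicate 1, standard replicate 3, AHARIBO replicate 1 or AHARIBO replicate 2, and with library size in place of TMM (0.051).

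**Figure D2:**
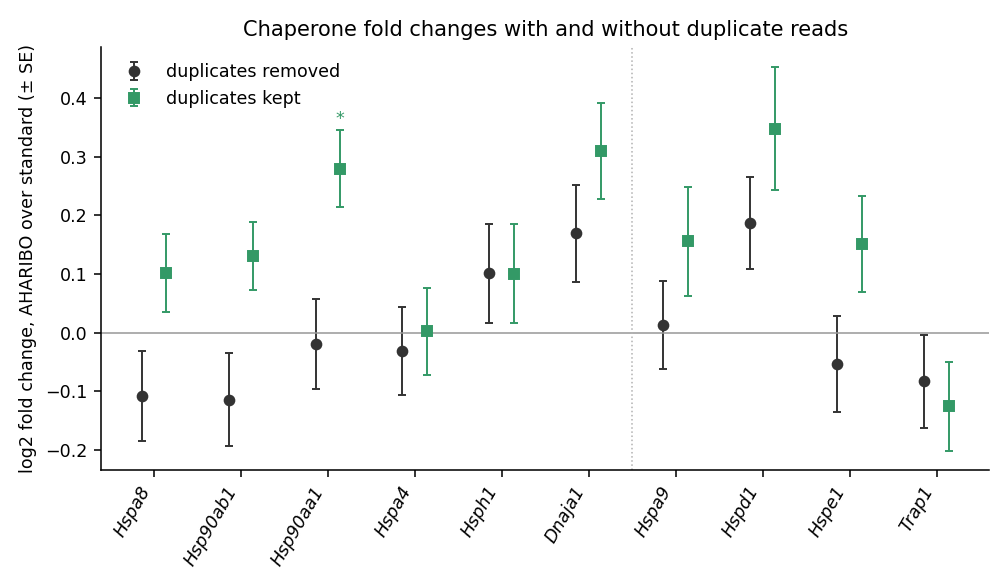
Log2 fold change of each chaperone gene, AHARIBO over standard RIBO-seq, with its standard error, for counts with duplicates removed (circles) and kept (squares); a star marks an adjusted p under 0.05 in edgeR. The star belongs to Hsp90aa1 with duplicates kept (0.28), and Hspa8, Hsp90ab1, Hsp90aa1, Hspa4 and Hspe1 lie on opposite sides of 0 in the 2 versions.

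The share of reads that was removed as duplicates differed widely among the chaperones. Over the 5 libraries together, 68.4% of the reads of Hsp90ab1, 66.1% of Hspa8 and 62.4% of Hsp90aa1 were removed, and 13.7% of the reads of Hsph1. The median over 10493 genes with at least 100 reads was 11.1%, and 2.72% of these genes lost a larger share than Hsp90ab1. The other members lost 27.0% (Dnaja1), 27.2% (Trap1), 36.1% (Hspd1), 40.0% (Hspa4), 43.3% (Hspe1) and 45.6% (Hspa9). Among all genes split into 10 bins by reads per nt, the median share was 6.0% in the lowest bin and 37.8% in the highest.

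By library, AHARIBO replicate 1 had the highest share in all 10 members. For Hsp90aa1, 59.7%, 59.1% and 54.4% of reads were removed in standard RIBO-seq and 69.7% and 62.1% in AHARIBO RIBO-seq, without overlap. For Dnaja1 the shares were 22.6%, 22.3% and 22.9% against 33.5% and 27.6%, and for Hspe1 38.9%, 39.5% and 37.4% against 51.0% and 43.5%, also without overlap. In all, 4 of the 10 members (Hsp90aa1, Hsp90ab1, Dnaja1 and Hspe1) had higher shares in both AHARIBO libraries than in any standard library, as did 9.22% of the 10493 genes, and the other 6 overlapped. For Trap1 the shares were 29.0%, 27.3% and 26.8% against 29.8% and 23.0%, with the AHARIBO libraries at both ends. Over all transcripts, 43.3% to 43.8% of reads were removed in standard RIBO-seq, 47.7% in AHARIBO replicate 1 and 44.9% in AHARIBO replicate 2. The part of this difference in the fold changes was not tested.

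**Figure D3:**
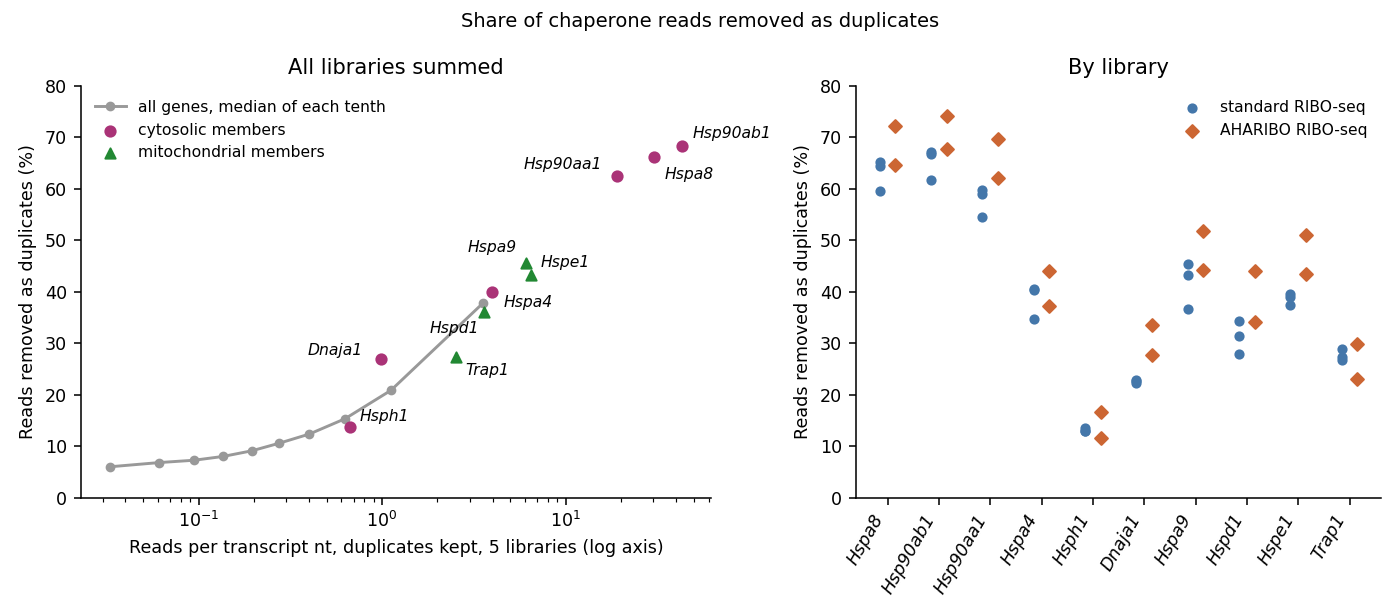
Left: percent of reads removed as duplicates against reads per transcript nt with duplicates kept (log axis), over the 5 libraries together, for cytosolic (circles) and mitochondrial (triangles) chaperones and for all genes (grey line, median of each of 10 bins of 10493 genes). Right: the same percent by library; AHARIBO replicate 1 is the upper diamond for every gene, and the values span 11.6% (Hsph1) to 74.2% (Hsp90ab1).

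Ratios between partner proteins are given as values, since no ratio can pass an exact test in this design and the share of non-overlapping ratios among other gene pairs was not computed. Footprints per coding nt of Hsp90ab1 were 1.52, 1.496 and 1.57 times those of Hsp90aa1 in standard RIBO-seq and 1.39 and 1.47 times in AHARIBO RIBO-seq (exact permutation p = 0.1, two-sided). The ratio of Hspd1 to Hspe1, which form 1 chamber and its lid, was 0.304, 0.368 and 0.301 against 0.398 and 0.367, with overlap (exact permutation p = 0.3). The ratio of Hspa9 to Hspd1 was 1.64, 1.56 and 1.68 against 1.41 and 1.47, and that of Dnaja1 to Hspa8 was 0.150, 0.148 and 0.142 against 0.192 and 0.165, both without overlap (exact permutation p = 0.1 each). The ratio of Hspa4 to Hspa8 was 0.335, 0.340 and 0.319 against 0.363 and 0.337 (exact permutation p = 0.3), and with duplicates kept it was lower, not higher, in both AHARIBO libraries (0.181 and 0.190 against 0.197 to 0.200). The level of the other ratios also depended on duplicates. With duplicates kept, the mean over standard libraries moved from 0.147 to 0.0698 for Dnaja1 to Hspa8. It moved from 1.53 to 1.86 for Hsp90ab1 to Hsp90aa1 and from 1.63 to 1.92 for Hspa9 to Hspd1. For Hspd1 to Hspe1 it moved from 0.324 to 0.291. With 2 against 3 libraries there are 10 splits, so 0.1 is the smallest p the test allows, and over the 16 ratios and shares compared in this way the lowest value adjusted by Benjamini-Hochberg was 0.23.

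In 4 of 6 chaperones, reads at the start of the coding sequence were a smaller share in both AHARIBO libraries than in any standard library, as in 29.9% of 528 genes, and with duplicates kept this held for 3 of the 6. For 6 members, Gencode holds protein_coding models that stop within the coding sequence, so that their reads count its first part together with their own leader. The model with the first 349 nt of Hspa8 (18.0% of the coding sequence) had 20.8%, 20.6% and 21.3% of the reads of the full transcript in standard RIBO-seq and 19.2% and 18.9% in AHARIBO RIBO-seq. The model with the first 427 nt of Hspd1 (24.8%) had 32.9%, 31.9% and 33.7% against 28.03% and 29.5%. In the model with the first 301 nt of Hsph1 (11.7%) the shares were 20.98%, 21.03% and 20.1% against 17.4% and 17.9%, and in that with the first 295 nt of Hsp90aa1 (13.4%) they were 16.4%, 17.2% and 18.7% against 15.8% and 15.7%. The AHARIBO libraries were below all standard libraries in each of these (exact permutation p = 0.1, except 0.2 for Hsp90aa1).

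The other 2 members with such models had groups that overlapped. The model with the first 229 nt of Hsp90ab1 had 9.76%, 10.2% and 9.72% of the reads against 10.1% and 10.3%. That with the first 386 nt of Dnaja1 had 24.6%, 26.0% and 24.7% against 24.9% and 26.6%. In total, the shortest such model was lower in AHARIBO RIBO-seq without overlap in 4 of 6 members and higher in 0. Of 528 genes with such a model and at least 50 reads in every library, the share was lower without overlap in 29.9% and higher without overlap in 8.14%. With duplicates kept, 3 of the 6 members were lower and 2 (Hsp90ab1 and Dnaja1) higher without overlap, where 28.4% and 14.0% of the 528 genes were.

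**Figure D4:**
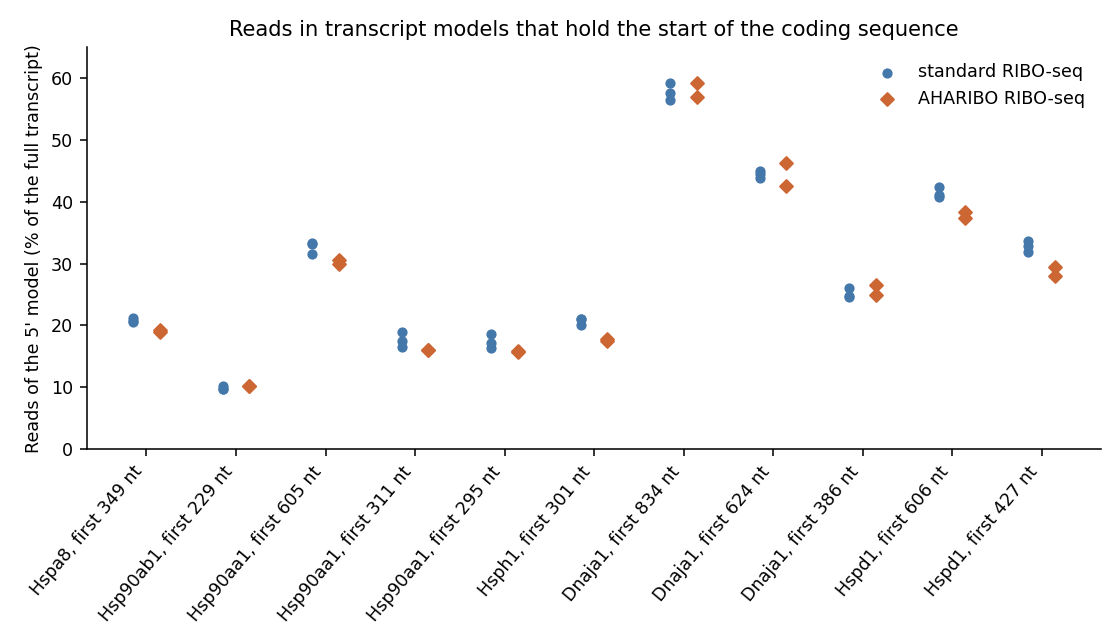
Reads of models that hold the first part of a chaperone coding sequence (the number of coding nt is on the horizontal axis), as a percent of the reads of the full transcript, duplicates removed, for 3 standard (circles) and 2 AHARIBO (diamonds) libraries. Diamonds lie below the circles for Hspa8, Hsp90aa1, Hsph1 and Hspd1. For the first 427 nt of Hspd1 they are at 28.03% and 29.5%, against 31.9% to 33.7%. Diamonds lie among or above the circles for Hsp90ab1 and Dnaja1. The exception is the first 624 nt of Dnaja1, where the diamonds lie on both sides of the circles (42.55% and 46.25%).

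Part of the reads of 7 chaperones cannot be assigned to 1 gene alone. Windows of 30 nt, the length of a footprint, were searched for exact matches in all deposited transcripts of other genes. In Hspa8, Dnaja1 and Hsp90aa1, 95.0%, 95.1% and 91.9% of coding windows were found in another gene, mostly processed pseudogenes. In Hspd1 the share was 78.8% and in Hspe1 50.4%. Hspa9 shared 22.1% and Hsp90ab1 20.97%, while Hspa4, Hsph1 and Trap1 shared 0. The pseudogene Gm15459 had 98.3% to 98.8% of the reads of Hspa8 in the 5 libraries, Gm12346 83.9% to 85.5% of those of Hsp90aa1, and Gm15542 63.6% to 70.4% of those of Dnaja1. In Hspa8, 18.3% of coding windows, and in Dnaja1 8.67%, lay in more than 10 deposited transcripts, the number above which STAR drops a read by default. The levels of these 7 genes are uncertain at least to the extent of the shared sequence, whereas the coding windows of Hspa4, Hsph1 and Trap1 had no exact match in another gene. Matches with mismatches were not searched.

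Methionine content and coding length were set beside the fold changes. Across the 10 members, Spearman's rho between the number of methionine codons and the log2 fold change was 0.0061 with duplicates removed and -0.43 with duplicates kept, and with coding length it was -0.12 and -0.54. These values describe 10 genes that were measured in the same 5 libraries, and carry no test.

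Of 63 listed genes that work with these chaperones, 3 passed the test and 60 did not, a share close to the 5.12% of all genes. The small heat shock protein Hspb1 fell from 224, 218 and 245 CPM in standard RIBO-seq to 173 and 202 CPM in AHARIBO RIBO-seq, a log2 fold change of -0.29 ± 0.08 (adjusted p = 0.023 in edgeR). Hsf1, the transcription factor that drives the heat shock response, fell from 16.8, 17.6 and 13.3 CPM to 12.6 and 10.4 CPM (-0.48 ± 0.13, adjusted p = 0.018 in edgeR). Yme1l1, a protease of the mitochondrial inner membrane, rose from 58.9, 58.4 and 61.2 CPM to 75.6 and 71.4 CPM (0.31 ± 0.08, adjusted p = 0.017 in edgeR). DESeq2 called 0 of the 63, with adjusted p = 0.067 for Hspb1, 0.10 for Yme1l1 and no adjusted p for Hsf1.

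Leaving out 1 library ended some of these calls, as did summing the transcripts of each gene (adjusted p of 0.14 to 0.16 in edgeR) and, for Hsf1, keeping 1 transcript per gene (0.056). Hspb1 was lost without standard replicate 1 (adjusted p = 0.11), standard replicate 3 (0.11) or AHARIBO replicate 1 (0.48), all in edgeR, and its log2 fold change ran from -0.18 without AHARIBO replicate 1 to -0.40 without AHARIBO replicate 2. Hsf1 was lost without standard replicate 1 (adjusted p = 0.10), standard replicate 2 (0.079) or AHARIBO replicate 2 (0.16), and Yme1l1 without standard replicate 1 (0.12), standard replicate 2 (0.051) or AHARIBO replicate 1 (0.25), in edgeR.

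By list, 13 of the 14 genes of the cytosolic HSP70 system had fold changes below 0, as did 6261 of all 12372 genes. The list's median was -0.17 on the log2 scale, 0 of its genes passed the test, and 2 had an unadjusted p under 0.05 in edgeR, where 19.4% of all genes did. Its most abundant genes were Bag6 (153 ± 8.21 against 139 ± 1.98 CPM) and St13 (83.7 ± 5.01 against 82.5 ± 1.86 CPM). The heat-inducible Hspa1a and Hspa1b were covered at 1.37 and 1.499 CPM per kb over the 5 libraries, and as near-identical copies they cannot be told apart with certainty. Among 13 J-domain proteins, 0 passed, and the leading Dnajc7 (0.05 ± 0.08) and Dnaja2 (0.03 ± 0.08) had log2 fold changes near 0. Among 14 HSP90 cochaperones, 0 passed: Fkbp4, an immunophilin, was at 231 ± 7.62 against 208 ± 10.3 CPM (adjusted p = 0.26 in edgeR) and Stip1, which joins HSP70 to HSP90, at 148 ± 5.81 against 146 ± 0.0054 CPM. Of the 7 small heat shock proteins and regulators, 2 passed the test as lower and 0 as higher, where 5.12% of all genes passed. Of these 7, 4 had fold changes below 0 and 3 above, with Hsf2 at 0.18 ± 0.10 on the log2 scale. Of the 15 mitochondrial chaperones and proteases, 1 passed the test as higher and 0 as lower. Of these 15, 9 had fold changes below 0 and 6 above, with Lonp1, the matrix protease, at -0.14 ± 0.08. The median over all 63 genes was -0.11, against -0.0032 over all genes, and 43 lay below 0.

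**Figure D5:**
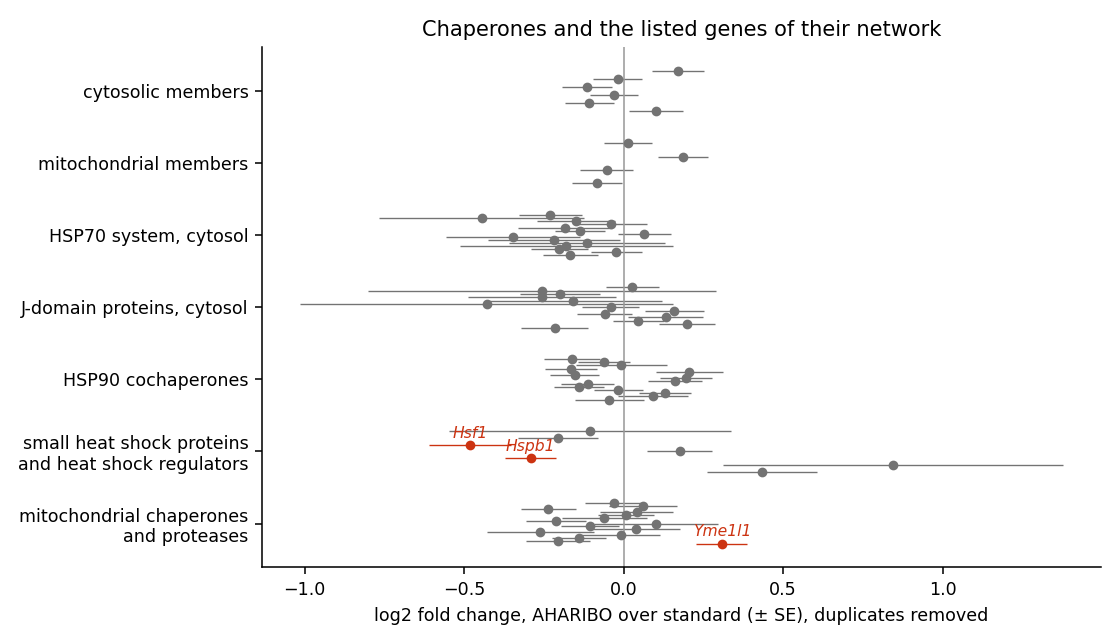
Log2 fold change, AHARIBO over standard RIBO-seq, with its standard error, for the 10 chaperones and the 63 listed genes of their network, duplicates removed. Red points passed the test in edgeR: Hsf1 (-0.48), Hspb1 (-0.29) and Yme1l1 (0.31); grey points did not pass.

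Of the 10 pluripotency markers, 2 passed the test, and none of the 3 fibroblast, 4 endoderm and 5 neural markers that could be tested did. The other 3 fibroblast markers and Afp were under 1 CPM in every library. The summed level of the 10 pluripotency markers was 1496 to 1598 CPM in standard RIBO-seq and 1368 to 1490 CPM in AHARIBO RIBO-seq. Sox2 (-0.32, adjusted p = 0.013 in edgeR, 0.051 in DESeq2) and Klf4 (-0.34, adjusted p = 0.0084 in edgeR, 0.048 in DESeq2) fell, and the other 8 did not pass, where edgeR called 5.12% of all genes. The 6 fibroblast markers summed to 5.63 to 6.50 CPM and to 5.77 to 5.89 CPM, the 5 endoderm markers to 5.08 to 7.30 CPM and to 4.02 to 5.09 CPM, and the 5 neural markers to 54.7 to 55.9 CPM and to 48.6 to 51.3 CPM. The fibroblast and endoderm sums overlapped between the methods, and the pluripotency and neural sums did not. Their part in the values of Hspb1, Hsf1 and Yme1l1 was not tested.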

How the data were processed

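For each of the 5 libraries the authors deposited transcript counts, in 1 version with duplicate reads removed and 1 with duplicates kept, without normalization. They trimmed reads with Trimmomatic 0.36, removed rRNA and tRNA reads, aligned the rest to Gencode M17 transcripts with STAR and removed antisense reads. How reads that match several transcripts were counted is not given in the sources used here, and molecular identifiers are not mentioned in them. The pseudogene Gm15459 held 98.3% to 98.8% of the reads of Hspa8, which shows that reads shared by these transcripts count in both. Library totals then hold such reads repeatedly. The number of per-sample columns not used was 0.

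Transcripts were named through Gencode M21, by identifier without version (134952 of 135276 matched). TMM factors and CPM were computed from the counts with edgeR 4.0.16 (R 4.3.3) over all transcripts. The filter kept transcripts that reached 1 CPM in any library, and edgeR's quasi-likelihood test compared 3 standard with 2 AHARIBO libraries, with Benjamini-Hochberg adjustment over all transcripts and a threshold of 0.05. Standard errors were derived from the F statistic. DESeq2 1.42.0 was an alternative. All 31 member transcripts passed the filter. Ratios and shares were compared by an exact two-sided permutation test. The fits were tested on simulated data. Floors of 3 counts cover counting error only.

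The members, gene lists and tests were chosen with earlier results of these data known. The genes named are all members, their second transcripts, network genes past the threshold and the 2 highest in CPM of each list. Hspa1a, Hspa1b, Dnajc8, Clpp, single markers and the models with the start of a coding sequence were named after their values were seen. Sequences came from Gencode M21.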

Additional observations from a re-analysis of the deposited data

How the results depend on the processing

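With duplicates removed, no member gene was called in either direction under any of the alternatives run (DESeq2, library size without TMM, RLE factors, other filters, replicate block, 1 transcript per gene, summed transcripts, other choices of the main transcript, a threshold of 1.5 on the log2 scale with an adjusted p of 0.01, and leaving out each library). With duplicates kept, 1 member was called higher, and the medians were 0.12 for cytosolic and 0.15 for mitochondrial members. Hsph1, Dnaja1, Hspd1 and Trap1 kept their sign in all 16 alternatives. The sign turned with duplicates kept for Hspa8 (0.10), Hsp90ab1 (0.13), Hsp90aa1 (0.28), Hspa4 (0.0023) and Hspe1 (0.15). Hsp90aa1 also turned with library size (0.015), the replicate block (0.023), 1 transcript per gene (0.010), and without standard replicate 3 (0.024) or AHARIBO replicate 1 (0.055). Hspa4 turned with library size (0.0033) and without AHARIBO replicate 1 (0.0041), and Hspa9 without standard replicate 1 (-0.0030) or AHARIBO replicate 1 (-0.0096). With each library left out in turn, the values spanned -0.23 to -0.0048 for Hsp90ab1, -0.20 to -0.022 for Hspa8, -0.13 to -0.029 for Trap1, -0.099 (without standard replicate 2) to -0.031 for Hspe1, -0.094 to 0.055 for Hsp90aa1, -0.064 to 0.0041 for Hspa4 and -0.0096 to 0.037 for Hspa9. The mitochondrial median was 0.014 with library size, which moved the median of all transcripts to 0.04, and 0.0090 with 1 transcript per gene. The cytosolic median also lay above 0 with library size (0.0093), with 1 transcript per gene (0.0042), and without standard replicate 3 (0.00059) or AHARIBO replicate 1 (0.030). It was lower than in the main fit without AHARIBO replicate 2 (-0.079) and without standard replicate 2 (-0.041), among others. The causes were not tested.

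With duplicates kept, alternatives chosen after seeing the data gave 2 members with DESeq2 (Hsp90aa1 and Hspd1), 0 with library size, 1 with the replicate block (Dnaja1, adjusted p = 0.042 in edgeR, with Hsp90aa1 at 0.066), and 0 to 2 when each library was left out. Of the network genes, under alternatives also chosen after seeing the data, 0 were higher and 0 lower with DESeq2 and with summed transcripts, 0 higher and 1 lower with the replicate block (which ended the calls of Hspb1, adjusted p = 0.30, and Yme1l1, 0.063, in edgeR), 1 lower with 1 transcript per gene, 2 higher (Yme1l1 and Dnajc8) and 3 lower (Hspb1, Hsf1 and Clpp) with duplicates kept, and 0 to 1 higher and 0 to 1 lower when each library was left out. All transcripts called numbered 3021 in edgeR, 308 with DESeq2, 1792 with the block, 966 with 1 transcript per gene, 28 with summed transcripts, and 510 (without AHARIBO replicate 1) to 3829 (without AHARIBO replicate 2) when each library was left out; a lone AHARIBO library was then assumed to vary like the standard ones. Same-numbered libraries shared no deviations beyond the others (r = 0.035 and -0.094). With 2 AHARIBO libraries these deviations mirror each other, so the check cannot exclude pairing. The main test did not use the numbers as pairs. The block changed no call of a member with duplicates removed. The 2 AHARIBO libraries limit the precision of every comparison.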
